A study of Mus musculus with 308 samples.

Results

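The spleens of C57BL/6 mice given the higher dose of dimethyl fumarate (DMF) were compared with those of mice given vehicle, over all genes that the array's probe sets name. The rule took the spleen arrays by title and found 8 arrays of the group at 179.2 mg/kg DMF (DMF179.2) and 8 of the vehicle group, 16 of the 308 arrays of the series. Dosing was once a day over 10 days, with DMF or with vehicle alone (0.8% hydroxypropyl methylcellulose), and organs were taken 12 h after the last dose. Other spleen groups used below received 100 mg/kg DMF (DMF100, 8 arrays) or the same dose together with 79.2 mg/kg of a mixture of monoethyl fumarate (MEF) as its calcium, magnesium and zinc salt (DMF100+MEF79.2, 8 arrays). Spleen arrays of MEF79.2 (7 arrays) and of a group labelled Nav (8 arrays), whose treatment is not explained in the labels, entered the fit for its estimate of spread; in the Nav group 851 genes (8.07%) were called higher than in vehicle and 560 (5.31%) lower. Age, sex and housing were not given in the sources used here. Nothing in the labels says whether an array holds 1 mouse or a pool, so p-values measure the spread between these arrays.

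The mouse spleen filters blood, holds B and T lymphocytes in its white pulp, and keeps a niche of red cell precursors in its red pulp that expands when red cell production is under demand. A precursor matures under the transcription factors GATA1, TAL1 and KLF1, takes up iron through transferrin receptors, divides several times, makes heme and hemoglobin, and then loses its nucleus. DMF is an ester of fumarate that modifies cysteines of KEAP1, the adaptor that marks the transcription factor NRF2 for destruction. NRF2 then drives genes of quinone reduction, glutathione and NADPH supply, many of which carry an antioxidant response element (ARE).

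All levels are log2 expression values of 1 probe set per gene on an Affymetrix mouse array. Differences are DMF179.2 minus vehicle on the log2 scale ± standard error from limma, fitted over the 47 spleen arrays in 6 groups. A gene was called when its Benjamini-Hochberg adjusted p over the 10549 genes tested was under 0.05. Where 3 levels are listed for a group, they are its lowest, median and highest array (n = 8). Of the genes tested, 1778 (16.9%) were called higher and 795 (7.54%) lower, and the median difference of all genes was 0.045. A size of at least 1.5-fold was reached by 354 called genes (3.36%), 293 higher (2.78%) and 61 lower (0.578%). After centring every array at its own median value, the split was 2277 higher to 547 lower, and with the mean of all probe sets of a gene (9484 genes tested) it was 1449 to 1191. Of the genes called higher, 21 passed the filter on low values only through the DMF179.2 arrays. In bulk tissue, fewer cells of a type and less RNA per cell cannot be told apart.

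The arrays carried the markers of spleen. Spic, the factor of red pulp macrophages, had vehicle levels of 10.46, 10.81 and 11.31, and Cd79b, of the B cell receptor, had 12.55, 12.60 and 12.73. Array medians lay between 5.399 and 5.515 in both groups. Probe sets for 18S RNA fell by 0.141 log2 units per step along the replicate number in spleen, within successive runs of 12 numbers, and then jumped back. The labels do not say what the replicate number stands for. Vehicle arrays held places 1 to 8 of their run and DMF179.2 arrays places 5 to 12 of theirs, so place and group overlap in places 5 to 8 alone. All vehicle arrays lay in run 1 and all DMF179.2 arrays in run 2. Run and group therefore cannot be told apart, at places 5 to 8 or with any covariate below. The 18S level was 7.31 to 8.15 in vehicle and 6.53 to 7.54 in DMF179.2, and the 3' minus 5' signal of the actin and Gapdh controls was 1.10 to 1.28 against 1.19 to 1.5. Of all genes tested, 5402 changed with place, 4433 of them rising. With place as a covariate, an alternative chosen after seeing the data, 1124 genes were called (642 higher, 6.09%, and 482 lower, 4.57%), of which 962 were also called without it and none changed sign. With the 3' minus 5' signal as a covariate 19 genes were called, none of them an erythroid, heme, division, repair, respiratory chain, antigen presentation or interferon-stimulated gene of the lists below. With places 5 to 8 alone (4 arrays per group) 2 genes were called, neither in a list. The part of RNA quality, of run and of place in the run in the differences below cannot be told apart from treatment beyond these values. Genes of the exocrine pancreas, which lies against the spleen, were high in vehicle arrays 3, 6 and 8 and in DMF179.2 arrays 17 and 19 (list means from 7.02 to 11.75, against 3.41 to 3.68 in the other arrays), and 0 of 12 of them were called.

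**Figure D1:**
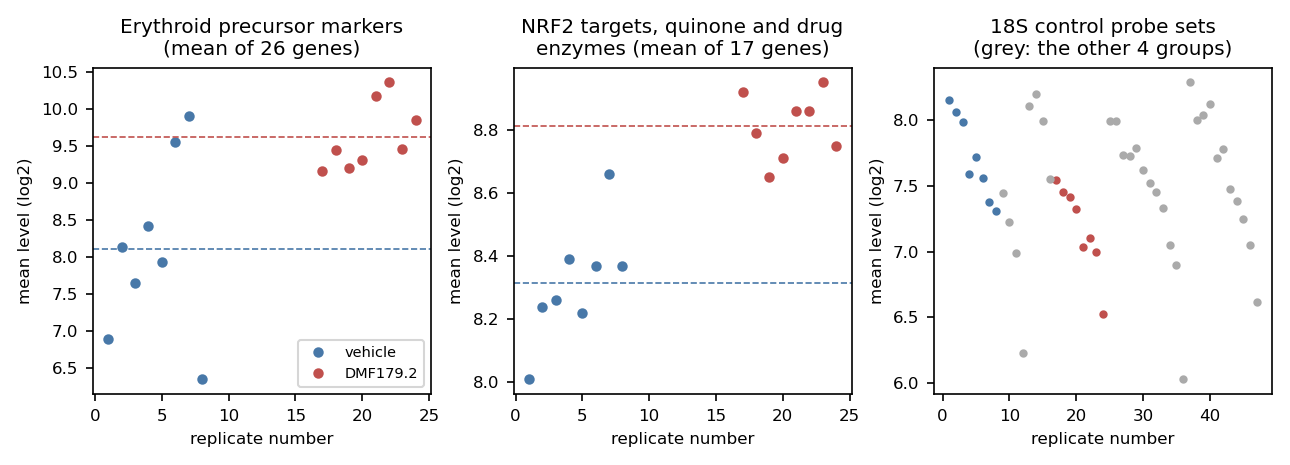
Mean log2 level of the erythroid precursor list (left) and of the NRF2 drug enzyme list (middle) in each vehicle (blue) and DMF179.2 (red) array against its replicate number, with dashed group means, and the 18S control in all spleen arrays (right). Vehicle arrays 6 and 7 reach the erythroid levels of DMF179.2, and the 18S signal falls in successive runs of 12 numbers.

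Genes of red cell precursors were higher under DMF179.2. Of 26 erythroid precursor genes tested, 20 rose and 0 fell, with a median difference of 1.53, against 16.9% of all genes called higher. Lists and members were chosen with earlier results of these data known. The shares set against all genes, here and below, therefore describe the lists and do not test them. The list's mean level was 6.35, 8.03 and 9.90 in the vehicle arrays and 9.16, 9.45 and 10.36 in the DMF179.2 arrays. Vehicle arrays 6 (9.56) and 7 (9.90) lay within the DMF179.2 range and the other 6 lay below it, and no member separated the groups completely. The vehicle spread (SD 1.21) was wider than the DMF179.2 spread (SD 0.46). With place as a covariate 13 of the 26 rose (median 1.77), and with the 3' minus 5' signal as a covariate 0 did (median 1.5). At places 5 to 8 alone 0 were called (median 0.895), and with no filter on low values 11 rose. Without a single array the count ranged from 7 to 22. It was 7 without vehicle 1, vehicle 8 or DMF179.2 22, 8 without DMF179.2 21, 10 without vehicle 3, and 13 without vehicle 5, DMF179.2 23 or DMF179.2 24.

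Among transcription factors, Gata1 had levels of 6.40, 7.92 and 9.60 in vehicle and 9.11, 9.74 and 10.34 in DMF179.2. It rose by 1.67 ± 0.50 (3.18-fold, adjusted p = 0.0155), and 6 of the 8 DMF179.2 arrays lay above the highest vehicle array. Klf1, which switches on adult globin and membrane genes, went from 5.48, 7.35 and 9.45 to 9.04, 9.75 and 10.55, and Tal1, the partner of GATA1, from 7.14, 8.45 and 10.47 to 9.75, 10.46 and 11.35 (1.91 ± 0.52, adjusted p = 0.00899). Both groups overlapped for these factors through vehicle arrays 6 and 7. Nfe2 (1.34 ± 0.50) rose as well, but not with place as a covariate (adjusted p = 0.0765). Zfpm1, the cofactor FOG1 of GATA1, rose by 1.2 ± 0.32, Gfi1b, a repressor of red cell and platelet lineages, by 1.54 ± 0.47, and Myb, a factor of cycling progenitors, by 0.52 ± 0.15. These 3 kept their call with place as a covariate (adjusted p = 0.0276, 0.0265 and 0.0498).

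The receptors of the lineage followed. Epor, the receptor for erythropoietin, had 5.37, 5.99 and 8.05 in vehicle and 7.32, 7.6 and 8.62 in DMF179.2, a rise of 1.44 ± 0.42 (adjusted p = 0.0121). Cish, a feedback inhibitor induced by STAT5, which acts below that receptor, rose by 0.45 ± 0.12. Tfr2, which binds the erythropoietin receptor and senses iron-loaded transferrin, had the third largest rise of all genes (4.44, 5.50 and 8.11 against 7.23, 8.38 and 9.33), and 6 of 8 DMF179.2 arrays exceeded every vehicle array. Tfrc, the receptor that brings in transferrin iron, was abundant already in vehicle (11.40, 12.10 and 12.78) and rose by 0.62 ± 0.21.

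Proteins of the red cell surface and skeleton are the next members of the list. Kel, the Kell blood group protein, had the largest difference of all genes (2.67 ± 0.90), with vehicle arrays from 2.81, close to the lowest value of the table (2.10), to 9.93. Its call ended with place as a covariate (adjusted p = 0.0646). Rhag, the Rh-associated channel, rose by 2.10 ± 0.74 and Rhd, the Rh protein itself, by 1.69 ± 0.61, Icam4, an adhesion molecule of erythroid islands, by 1.66 ± 0.52, and Ermap by 1.54 ± 0.54. Ank1, the ankyrin that ties band 3 to spectrin, rose by 2.29 ± 0.58, Sptb, which encodes beta spectrin, by 1.23 ± 0.45, Epb42, protein 4.2, by 2.06 ± 0.73, and Dmtn, dematin, by 2.09 ± 0.74. Of these 8 genes, Rhag, Icam4 and Ank1 kept their call with place as a covariate. Slc4a1, which encodes band 3, differed by 1.26 ± 0.59 (adjusted p = 0.11) and was not called.

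Of the 15 largest rises among called genes 9 kept their call with place as a covariate. Several belong to no list. Slc38a5, a glutamine transporter, rose by 2.10 ± 0.68, Fn3k, which removes fructose adducts from proteins, by 2.01 ± 0.71, Apol8 by 2.29 ± 0.71, and the unnamed transcripts 5430401H09Rik and Gm20161 by 2.33 ± 0.86 and 2.09 ± 0.63. Tlcd4 rose by 2.57 ± 0.60 (adjusted p = 0.00331), with 7 of 8 DMF179.2 arrays above every vehicle array. Aldh1a7, an aldehyde dehydrogenase, was the only one of the 15 largest rises with no overlap: 4.64, 5.37 and 6.71 in vehicle and 6.93, 7.57 and 8.18 in DMF179.2. With the erythroid mean as a covariate Tlcd4 (0.91, adjusted p = 0.0212) and Aldh1a7 (1.13, adjusted p = 0.0247) were still called, while Fn3k, Apol8, Gm20161, Slc38a5 and 5430401H09Rik were not. Slc38a5, Fn3k and 5430401H09Rik also lost their call with place as a covariate.

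**Figure D2:**
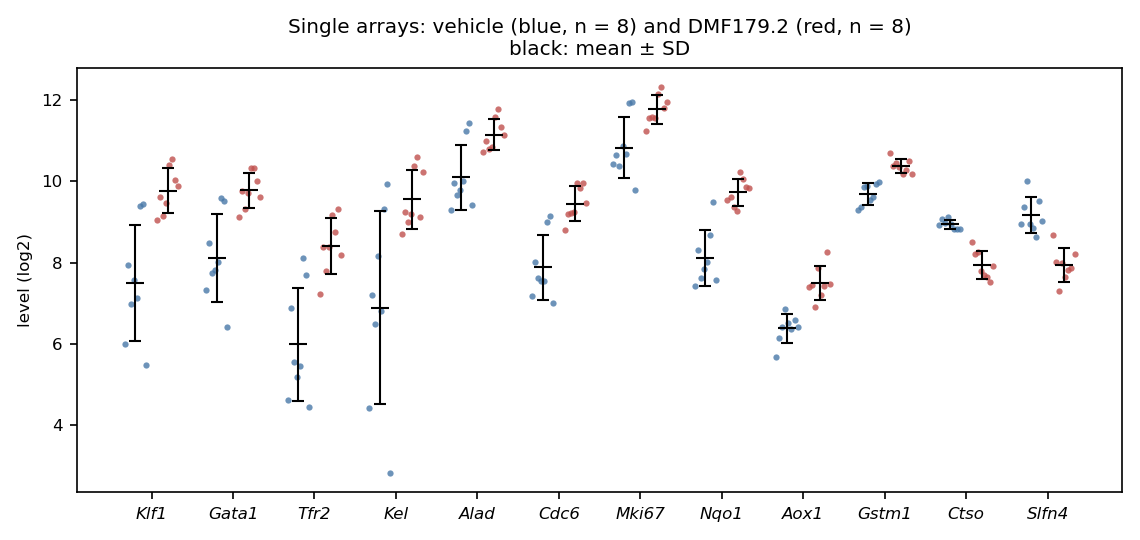
Log2 level of 12 genes in each vehicle (blue, n = 8) and DMF179.2 (red, n = 8) array, with mean and SD in black. The erythroid and cell cycle genes overlap between the groups through vehicle arrays 6 and 7, while Aox1, Gstm1 and Ctso do not overlap.

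Promoter sequences of erythroid genes that rose are shown because GATA1, which rose, is known to bind AGATAA. RefSeq promoters (build GRCm38.p6) were available for 16 of the 20 genes that rose, and the 250 bases before the start of 6 of them, Epb42, Epor, Icam4, Kel, Rhd and Tal1, held AGATAA on either strand. Among all 8532 tested genes with a promoter 7.34% held it, as did 8.01% of genes called higher and 8.24% of genes called lower. Of the 8 genes of heme synthesis and mitochondrial iron supply that rose (below), 0 held it. Relative to the start site, the motif begins at base -56 in Kel (chr6:41704334-41704423, minus strand), -54 in Epor (chr9:21963583-21963672, minus strand), -43 in Icam4 (chr9:21029342-21029431, plus strand) and -43 in Rhd (chr4:134864446-134864535, plus strand). Capitals mark the motif, which reads TTATCT where it lies on the opposite strand:
Kel: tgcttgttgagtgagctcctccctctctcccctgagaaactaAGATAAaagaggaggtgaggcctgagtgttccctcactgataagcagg
Epor: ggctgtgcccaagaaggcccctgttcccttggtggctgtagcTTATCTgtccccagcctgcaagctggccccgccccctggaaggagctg
Icam4: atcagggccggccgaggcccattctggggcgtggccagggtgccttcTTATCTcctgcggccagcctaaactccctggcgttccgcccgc
Rhd: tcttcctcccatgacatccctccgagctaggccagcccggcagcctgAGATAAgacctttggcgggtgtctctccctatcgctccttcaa
The KLF1 motif CCACACCC stood in 1 of the 16 promoters, that of Tfr2, and in 4.16% of those of all tested genes. These matches describe letters in the windows and do not show binding.

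Genes of several steps of heme synthesis rose. Of 14 genes of heme synthesis and mitochondrial iron supply tested, 8 rose (57.1%, against 16.9% of all genes) and 0 fell (median 0.64). With place as a covariate 8 rose, 6 of them the same genes. Alad, which joins 2 molecules of aminolevulinate, had 9.29, 9.87 and 11.43 in vehicle and 10.72, 11.07 and 11.79 in DMF179.2 (1.05 ± 0.32, adjusted p = 0.017). Uros, which closes the tetrapyrrole ring, rose by 0.81 ± 0.23, Cpox, an oxidase of the later steps, by 0.88 ± 0.28, and Ppox, the next enzyme, by 0.57 ± 0.18. Slc25a38, the mitochondrial glycine carrier, rose by 0.84 ± 0.23, Abcb6, a porphyrin transporter, by 1.03 ± 0.26, Slc25a39 by 0.40 ± 0.14 and Glrx5, of iron-sulfur cluster assembly, by 0.68 ± 0.21. The calls of Ppox and Slc25a39 ended with place as a covariate. The first and last enzymes, Alas2 (0.48 ± 0.42) and Fech (0.60 ± 0.29), were not called.

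Genes of the last stages were not called. None of the 3 globin genes tested passed the threshold: Hba-a1 differed by 0.098 ± 0.11, Hbb-b2 by 0.099 ± 0.076 and Hba-a2 by -0.18 ± 0.078. Their vehicle medians of 14.04 and 13.84 for Hba-a1 and Hbb-b2 lie near the top of the scale, and blood held in the tissue carries the same transcripts. Whether either bears on these differences was not tested. Of 8 genes of late maturation and mitophagy 0 were called, the widest difference being Ypel4 (2.04 ± 0.78, adjusted p = 0.0506). Among 17 regulators of stress erythropoiesis 5 rose (29.4%, against 16.9% of all genes) and 3 fell (17.6%, against 7.54%), with a median of 0.011. Higher were Zfpm1, Gfi1b, Myb, Cish and Epor, the last also a member of the erythroid precursor list. The 3 that fell were Id1, a target of BMP signals (-0.44 ± 0.10), Smad5, which carries those signals (-0.45 ± 0.15), and Epas1, the hypoxia factor HIF2A (-0.15 ± 0.058). The sign of Smad5 turned with the 3' minus 5' signal as a covariate. Id1 alone of the 3 was called with place as a covariate. Bmp4 (-0.005 ± 0.15) and Kit (0.011 ± 0.082), the ligand and the receptor most used to define the stress pathway, were not called.

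Cell division genes rose together with the erythroid genes. Of 24 mitotic genes tested 14 rose (58.3%, against 16.9% of all genes) and 0 fell (median 0.72). Of 28 genes of DNA replication and S phase 20 rose (71.4%) and 0 fell (median 0.58). With place as a covariate 14 and 17 of them rose, of which 12 and 17 were also called without it. With the 3' minus 5' signal as a covariate 0 of either list were called, with medians of 0.659 and 0.473. Single arrays moved the mitotic count between 7 (without vehicle 8 or DMF179.2 22) and 21 (without vehicle 7). It was 8 without vehicle 3 or DMF179.2 21 and 9 without vehicle 5. The replication count ranged from 14 to 22.

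Licensing factors of replication origins were among the genes that rose. Cdc6, which loads the MCM helicase, had 7.01, 7.58 and 9.15 in vehicle and 8.80, 9.35 and 9.95 in DMF179.2, and 7 of 8 DMF179.2 arrays exceeded every vehicle array (1.57 ± 0.41, adjusted p = 0.00621). Cdt1, its partner, rose by 0.55 ± 0.13, Mcm10 by 1.21 ± 0.28 and Mcm2, a helicase subunit, by 0.76 ± 0.19. The S phase cyclins Ccne1 and Ccne2 rose by 0.96 ± 0.28 and 1.22 ± 0.28, E2f1 by 0.59 ± 0.18, the primase Prim1 by 0.68 ± 0.17 and the sliding clamp Pcna by 0.33 ± 0.099. Among mitotic genes, Mki67, the proliferation marker, went from 9.78, 10.66 and 11.96 to 11.25, 11.70 and 12.33 (0.94 ± 0.31, adjusted p = 0.0247). Cyclin B2 (Ccnb2) rose by 1.13 ± 0.35, the kinase Cdk1 by 0.82 ± 0.27, and the kinetochore proteins Cenpe and Cenpf by 0.97 ± 0.26 and 1.59 ± 0.47. Racgap1, of cytokinesis, rose by 0.71 ± 0.15 with 7 of 8 DMF179.2 arrays above every vehicle array.

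DNA repair genes that are active in replicating cells rose too. Of 11 tested 6 rose (54.5%, against 16.9% of all genes) and 0 fell (median 0.50). With place as a covariate 6 rose, 5 of them the same genes. Brca1, of homologous recombination, had 7.20, 7.58 and 8.75 in vehicle and 8.31, 8.94 and 9.51 in DMF179.2 (1.2 ± 0.29, adjusted p = 0.00394). Brca2 rose by 0.66 ± 0.18, the checkpoint kinase Chek1 by 0.86 ± 0.22, the exonuclease Exo1 by 0.63 ± 0.18 and Fanca, of the crosslink repair pathway, by 0.47 ± 0.12, whose call ended with place as a covariate (adjusted p = 0.059).

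With the mean of the erythroid list as a covariate, the medians of these lists moved towards 0. The median difference became -0.0036 for mitotic genes, 0.073 for replication genes and 0.087 for heme genes, with 1, 2 and 0 of them called higher. Over all genes 1145 of 10523 (10.9%) were called (8.31% higher, 2.58% lower) under this covariate, and 948 of these were among those called without it. The covariate was itself higher in DMF179.2, so it also takes up part of any difference shared with the treatment.

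**Figure D3:**
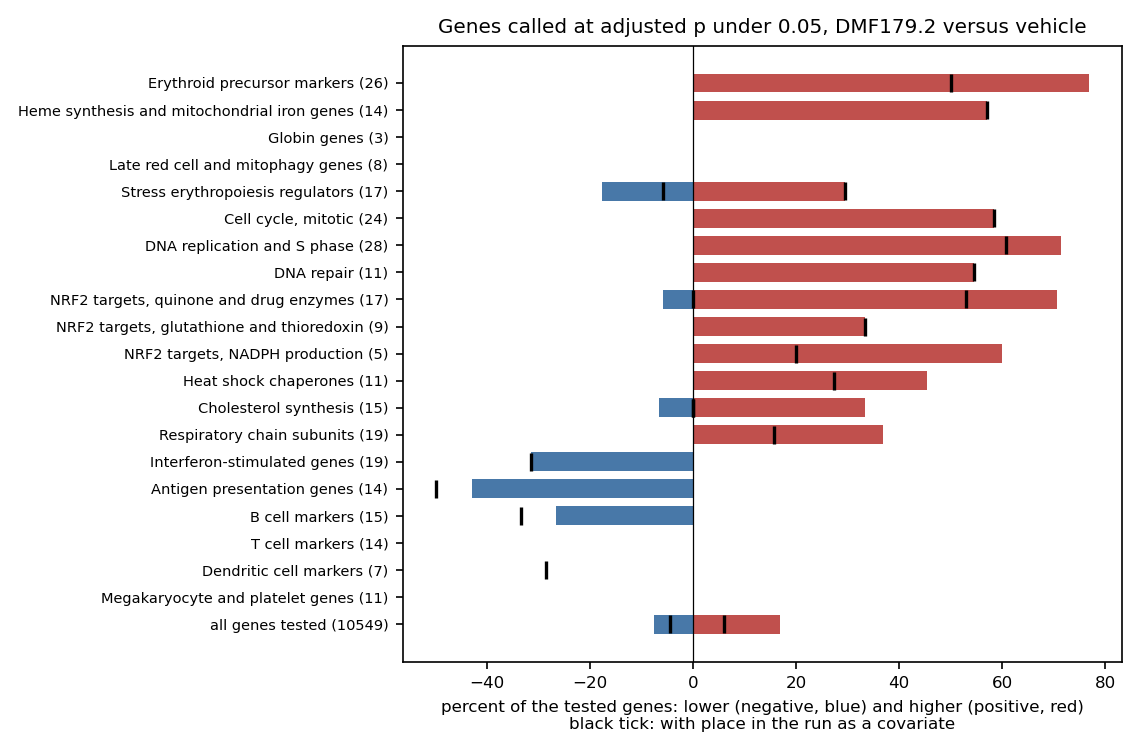
Percent of each list's tested genes called higher (red) or lower (blue, drawn as negative) in DMF179.2 against vehicle, with the number tested in parentheses; black ticks show the same with place in the run as a covariate. The erythroid, replication and NRF2 drug enzyme lists reach the highest shares called higher, and antigen presentation the highest share called lower.

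Genes of the NRF2 drug enzyme list were higher. Its mean level was 8.31 ± 0.19 in vehicle and 8.81 ± 0.10 in DMF179.2 (SD, n = 8), a smaller difference than in the erythroid list with a smaller spread. Of 17 quinone and drug enzyme genes tested, 12 rose (70.6%, against 16.9% of all genes) and 1 fell (median 0.29). All DMF179.2 arrays were separated from all vehicle arrays by 5 of them, against 1.04% of all genes that did so upward. With place as a covariate 9 rose, and with the erythroid mean as a covariate 10 did. With the 3' minus 5' signal as a covariate 4 rose, and at places 5 to 8 alone 0 were called (median 0.285). One of the 12, Pir, lay above the filter in under 5 arrays outside DMF179.2, so it was tested because of its level there.

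Nqo1, the quinone reductase most used as a readout of NRF2, had vehicle arrays at 7.42, 8.31, 7.63, 7.83, 8.02, 8.69, 9.48 and 7.56 (replicates 1 to 8). The DMF179.2 arrays had 9.55, 9.62, 9.38, 9.28, 10.23, 10.07, 9.86 and 9.84 (replicates 17 to 24). Vehicle array 7 alone reached the DMF179.2 range, and the rise was 1.61 ± 0.32 (3.06-fold, adjusted p = 0.000985). Aox1, an aldehyde oxidase, shared the smallest adjusted p of all genes (6.62e-05) and did not overlap: 5.68, 6.42 and 6.86 in vehicle and 6.90, 7.43 and 8.26 in DMF179.2, a rise of 1.12 ± 0.17 (2.17-fold). Gstm1, a mu class glutathione transferase, likewise went from 9.30, 9.73 and 9.98 to 10.19, 10.36 and 10.71 (0.69 ± 0.10, adjusted p = 6.62e-05). Of its 3 other probe sets 2 had the same sign, and mu class genes are close copies, so its signal may include relatives.

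Other detoxifying enzymes without overlap were Gsta4, an alpha class transferase of lipid aldehydes (7.27, 7.70 and 8.03 against 8.04, 8.53 and 8.95), Ptgr1, which acts on leukotriene B4 and reduces alkenals (6.76, 6.97 and 7.53 against 7.59, 7.74 and 8.26), and Cbr1, a carbonyl reductase (8.81, 9.03 and 9.14 against 9.22, 9.30 and 9.37). They rose by 0.81 ± 0.14, 0.77 ± 0.15 and 0.29 ± 0.055. Pir, the iron protein pirin, rose from 4.26, 4.69 and 5.57 to 5.34, 5.72 and 6.62, Ugt1a6a, a glucuronosyltransferase, by 0.62 ± 0.17 and Cbr3 by 0.25 ± 0.082. Hmox1, heme oxygenase 1, was the member that fell, with 11.27, 11.71 and 12.14 in vehicle and 11.15, 11.31 and 11.95 in DMF179.2 (-0.34 ± 0.13, adjusted p = 0.0495). Its call ended with place as a covariate (adjusted p = 0.231) and its sign turned with the 3' minus 5' signal as a covariate.

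Glutathione and NADPH supply changed in part. Of 9 glutathione and thioredoxin genes 3 rose (33.3%, against 16.9% of all genes) and 0 fell. Srxn1, sulfiredoxin, rose by 0.52 ± 0.11, Mgst1, a membrane transferase, by 0.41 ± 0.095 and Txnrd1, thioredoxin reductase, by 0.19 ± 0.049. These 3 also rose with place as a covariate, and Srxn1 and Txnrd1 with the 3' minus 5' signal as a covariate. The subunits of the enzyme that starts glutathione synthesis were not called, with 0.67 ± 0.34 (adjusted p = 0.139) for the modifier Gclm and 0.043 ± 0.16 for the catalytic Gclc, and neither were Gsr (-0.054 ± 0.077) and Prdx1 (0.0034 ± 0.029). Of 5 NADPH genes 3 rose (60%, against 16.9% of all genes). They were Pgd, of the pentose phosphate pathway, by 0.30 ± 0.067 without overlap, Me1, malic enzyme, by 0.62 ± 0.17 and Tkt, transketolase, by 0.18 ± 0.061. Pgd alone of the 5 was called with place as a covariate. Among 7 regulators the partner Mafg rose by 0.61 ± 0.13 and the relative Nfe2l1 fell (-0.20 ± 0.06), the latter without a call when place was a covariate. These shares, 14.3% each way, are near those of all genes (16.9% and 7.54%). Nfe2l2, which encodes NRF2 and is controlled at the protein level, differed by 0.046 ± 0.05 and was not called.

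ARE cores, spelled TGACNNNGC, were looked for on both strands of the same promoter windows. They stood in 1 of 11 quinone and drug enzyme genes that rose (Pir) and in 2 of 3 glutathione and thioredoxin genes that rose (Mgst1 and Txnrd1). Of the 3 NADPH genes that rose 0 held one. The share was 14% among all tested genes with a promoter and 14.2% among genes called higher. No match elsewhere says only that these letters are not within 250 bases. The windows of Pir (chrX:164269181-164269270, plus strand) and of 1 of the starts of Txnrd1 (chr10:82859073-82859162, plus strand) are shown because both genes kept their call under the 3' minus 5' covariate, with the core in capitals on the opposite strand:
Pir: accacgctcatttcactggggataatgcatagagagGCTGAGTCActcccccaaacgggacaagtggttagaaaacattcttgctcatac
Txnrd1: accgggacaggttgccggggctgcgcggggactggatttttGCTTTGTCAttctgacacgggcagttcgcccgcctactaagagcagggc

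Further stress genes moved in smaller numbers. Mt1, a metallothionein that binds zinc, had 9.23, 9.61 and 10.02 in vehicle and 9.96, 10.17 and 10.74 in DMF179.2 (0.69 ± 0.17, adjusted p = 0.00481), and the zinc importer Slc39a8 rose by 0.57 ± 0.17. They were the 2 genes called of 7 metallothioneins and zinc transporters (28.6%, against 16.9% of all genes called higher). Of 11 heat shock chaperones 5 rose (45.5%, against 16.9% of all genes) and 0 fell, and 3 rose with place as a covariate. Among the 5 were Dnaja1 (0.35 ± 0.085) and Dnajb1 (0.27 ± 0.096), both partners of HSP70. Of 15 genes of endoplasmic reticulum stress and ATF4 2 rose (13.3%, against 16.9% of all genes) and 1 fell (6.67%, against 7.54%). Asns, asparagine synthetase, rose from 7.24, 7.95 and 9.42 to 9.19, 9.72 and 10.31 (1.58 ± 0.43, adjusted p = 0.00834), with vehicle arrays 6 (9.26) and 7 (9.42) the highest of their group. Atf4 rose by 0.14 ± 0.041, with its call ending when place was a covariate, and Pdia4 fell (-0.58 ± 0.14). Among antioxidant enzymes of the red cell 4 of 9 rose (44.4%, against 16.9% of all genes), including the mitochondrial Sod2 (0.29 ± 0.063) and Gpx4 (0.26 ± 0.067). In this list 1 fell (11.1%, against 7.54%), the mitochondrial thioredoxin Txn2 (-0.19 ± 0.071). With the erythroid mean as a covariate 1 of the 9 rose, and the list's median went from 0.224 to -0.017. Aco1, the iron-regulatory protein 1, rose without overlap (8.03, 8.14 and 8.29 against 8.38, 8.48 and 8.62). It was the only one of 11 iron storage and export genes to rise (9.09%, against 16.9% of all genes).

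Metabolic lists changed by small amounts. Of 15 cholesterol synthesis genes 5 rose (33.3%, against 16.9% of all genes), led by Sqle (0.43 ± 0.12) and Lss (0.54 ± 0.16). The regulator Srebf2 fell (-0.18 ± 0.068). Of 7 fatty acid synthesis genes 3 rose (42.9%), including Elovl6 (0.52 ± 0.17) and Acaca (0.33 ± 0.11). None of these 9 genes was called with place as a covariate. Of 19 respiratory chain subunits 7 rose (36.8%, against 16.9% of all genes) and 0 fell. The list's median difference, 0.047, was near that of all genes (0.045). With the erythroid mean as a covariate 3 rose (median -0.00049). Of the 7, Ndufa1 (0.33 ± 0.061), Cox6c (0.27 ± 0.052) and Sdhb (0.21 ± 0.066) separated the groups completely, against 1.04% of all genes that did so upward. Ndufa1, Cox6c and Ndufv1 (0.42 ± 0.083) kept their call with place as a covariate. Enzymes of mitochondrial metabolism that separated the groups were Fh1, fumarase (0.23 ± 0.074), and Acadm, of fatty acid oxidation (0.37 ± 0.085), and of these Acadm kept its call with place.

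Genes that present antigen to T cells were lower under DMF179.2. Of 14 antigen presentation genes 6 fell and 0 rose (median -0.13), against 7.54% of all genes called lower, and 4 of them lay lower in every DMF179.2 array than in every vehicle array, against 0.683% of all genes. With place as a covariate 7 fell, and without any single array 6 or 7 did. With the erythroid mean as a covariate 4 fell (median -0.059). With the 3' minus 5' signal as a covariate 0 were called (median -0.104). Ciita, the master activator of MHC class II, had 8.94, 9.20 and 9.27 in vehicle and 7.89, 8.53 and 8.89 in DMF179.2 (-0.65 ± 0.13, adjusted p = 0.0012), and both of its other probe sets had the same sign. The class II genes H2-Oa, H2-DMb2, H2-DMa and H2-Eb1 fell by smaller amounts (-0.30 ± 0.061, -0.33 ± 0.068, -0.22 ± 0.053 and -0.18 ± 0.039), as did the class I gene H2-K1 (-0.12 ± 0.033).

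Interferon-stimulated genes were lower as well. Of 19 tested 6 fell (31.6%, against 7.54% of all genes called lower) and 0 rose (median -0.23). Against the same vehicle group the list's median was -0.272 in DMF100, -0.293 in the combination and -0.336 in MEF79.2, which held no DMF. In Nav it was -0.0431. With the 3' minus 5' signal as a covariate no member was called. With place as a covariate 6 fell, 5 of them the same genes, without any single array 6 were called lower, and 7 fell with the erythroid mean as a covariate. Slfn4, a myeloid member of the Schlafen family, went from 8.62, 8.99 and 10.02 in vehicle to 7.29, 7.93 and 8.69 in DMF179.2 (-1.22 ± 0.34, adjusted p = 0.00905). Ifi27l2a separated the groups (11.98, 12.13 and 12.33 against 11.51, 11.79 and 11.91), and Xaf1, Ifit3, Mx1 and Stat2 fell by 0.49 ± 0.091, 0.55 ± 0.15, 0.44 ± 0.13 and 0.31 ± 0.068. The call of Mx1 ended with place as a covariate (adjusted p = 0.0518).

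Of 15 B cell markers 4 fell and 0 rose (median -0.091). They were Cr2, a complement receptor of marginal zone and follicular B cells (-0.24 ± 0.066), Spib (-0.26 ± 0.076), Cd37 (-0.23 ± 0.055) and Cd79b (-0.11 ± 0.037). With the 3' minus 5' signal or the erythroid mean as a covariate 1 of the 15 fell, and with place 5 did, without Spib. Irf4, of plasma cell formation, was also lower (-0.22 ± 0.062). Prf1, the perforin of killer cells, was lower in every DMF179.2 array than in every vehicle array (8.10, 8.25 and 8.39 against 7.78, 7.89 and 8.10, where the touching values differ before rounding, adjusted p = 0.0004), the only one of 9 NK cell markers called. Cd274, the ligand PD-L1 (-0.45 ± 0.065), and Ccr6, a chemokine receptor (-0.51 ± 0.077), were chosen after their values were seen, for their small adjusted p (6.62e-05 and 8.35e-05). Of 14 T cell markers, 7 dendritic cell markers and 11 megakaryocyte and platelet genes 0 were called in either direction, with medians of 0.033, 0.0063 and 0.21. Of 16 macrophage genes 1 rose (Hpgd, 0.23 ± 0.071) and 1 fell (C1qa, -0.32 ± 0.12). Of 14 genes of monocytes and neutrophils 1, Cxcr2, fell (-0.40 ± 0.15), and of 14 of stroma and endothelium 3 fell, led by Pecam1 (-0.41 ± 0.086). Of these, Hpgd, C1qa and Cxcr2 lost their call with place as a covariate. The shares called among macrophage genes (6.25% each way) lie below those of all genes (16.9% higher and 7.54% lower). Those called lower were 26.7% of B cell, 11.1% of NK cell, 7.14% of monocyte and neutrophil, and 21.4% of stroma and endothelium genes. The monocyte and neutrophil share is near that of all genes.

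The 15 largest falls among called genes held 1 gene of these lists, Slfn4. Xpnpep3, a mitochondrial peptidase, had the largest among genes called (5.82, 6.37 and 6.54 against 3.66, 4.89 and 5.94, -1.38 ± 0.39), followed by the splicing factor Tra2b (-1.24 ± 0.38). Neither was called with place as a covariate (adjusted p = 0.129 and 0.185), and the same held for Sorbs2, Rlf, Ulbp1, Rbm12b1 and Cbl, so 8 of the 15 kept their call. Those were Slfn4, Ctso, Nr2c2, 2310001H17Rik, Prpf38b, Atf7, Ikzf3 and Kif1b. Ctso, the lysosomal protease cathepsin O, was the clearest, with 8.82, 8.94 and 9.12 in vehicle and 7.53, 7.85 and 8.50 in DMF179.2, no overlap and an adjusted p of 6.62e-05. Its difference was -0.996 ± 0.14 and -0.79 with place as a covariate. Ikzf3, the lymphocyte factor Aiolos, also separated the groups (9.0, 9.18 and 9.59 against 7.79, 8.36 and 8.95).

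The next comparison sets the higher dose against the lower. Against DMF100, 270 genes (2.56%) were called, 186 (1.76%) higher in DMF179.2 and 84 (0.796%) lower. Fitted on these 16 arrays alone only 1 gene was called, with a variance weight per group 3 were, and with place as a covariate 201 were. The 270 included Ptgr1 (0.64 ± 0.15), Mcm10 (1.11 ± 0.28), Brca1 (1.11 ± 0.29) and Mt1 (0.59 ± 0.17). The heat shock partner Dnaja1 went the other way, with a difference of -0.30 ± 0.085. Nqo1 differed by 0.93 between the doses (95% interval 0.30 to 1.57, adjusted p = 0.0688), and Gata1 by 1.49 (0.48 to 2.51, adjusted p = 0.0685). Set against vehicle, which both comparisons share, the erythroid median was 1.53 in DMF179.2 and 0.186 in DMF100, the replication median 0.585 and 0.055, the drug enzyme median 0.294 and 0.129, and the interferon median -0.23 and -0.27. The erythroid means of DMF100 arrays ranged from 6.79 to 10.19, as widely as those of vehicle. DMF100 arrays 9 to 12 (run 1, that of vehicle, places 9 to 12) had 7.35, 7.6, 7.51 and 8.44. Arrays 13 to 16 (run 2, that of DMF179.2, places 1 to 4) had 10.19, 6.79, 9 and 9.74. Dose, run and place are not separated in this comparison, and the part of run was not tested.

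Against the combination, in which 79.2 mg/kg of MEF salts stand in for as much DMF, 595 genes (5.64%) were called: 433 (4.1%) were higher in DMF179.2 and 162 (1.54%) lower. With no filter on low values 350 genes were called in all, and fitted on these 16 arrays alone 1055. With place as a covariate 654 were called. All combination arrays lay in runs 3 and 4, so run and group cannot be told apart in this comparison. Higher genes included Ank1 (1.89 ± 0.58), Zfpm1 (1.16 ± 0.32), Mcm10 (0.93 ± 0.28), Chek1 (0.82 ± 0.22) and Cish (0.50 ± 0.12). Lower genes included Ctso (-0.58 ± 0.14), Prf1 (-0.26 ± 0.061) and Pecam1 (-0.35 ± 0.086). The combination itself had 2 genes called higher than vehicle (0.019%) and 1 lower (0.00948%), and the higher ones were Gstm1 (0.64 ± 0.10) and Aox1 (0.83 ± 0.17). Against the shared vehicle group, the combination's medians were 0.397 for erythroid, 0.085 for replication, 0.184 for drug enzyme and -0.29 for interferon-stimulated genes.

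**Figure D4:**
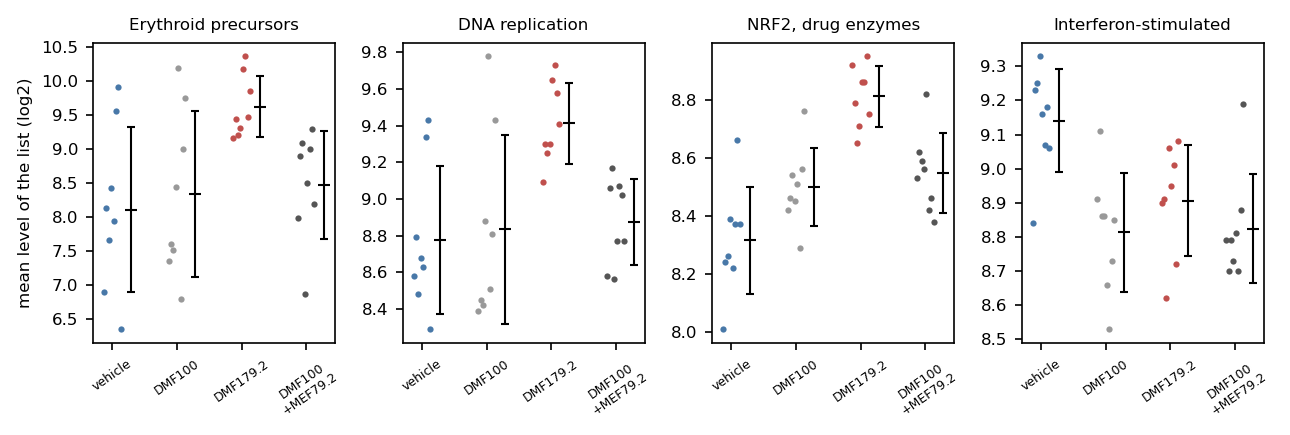
Mean log2 level of 4 lists in every spleen array of vehicle, DMF100, DMF179.2 and DMF100+MEF79.2 (8 arrays each), with the group mean and SD in black. DMF179.2 arrays form the narrowest and highest erythroid group (9.16 to 10.36), while interferon-stimulated means lie lower in all 3 dosed groups than in vehicle.

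The same comparison was made in mesenteric lymph node (8 arrays per group) and blood (8 DMF179.2 and 7 vehicle arrays). The difference between spleen and mesenteric node in response to DMF179.2 was called for 550 of 10121 genes (5.43%; 3.11% higher in spleen, 2.32% lower), and that between spleen and blood for 206 of 9557 (2.16%). In the node, where 1.73% of all genes were called lower, 4 of 23 mitotic genes fell and 0 rose (median -0.43), and 3 of 27 replication genes fell (median -0.25). The response of Cdc6 was 1.97 ± 0.44 higher in spleen than in node (adjusted p = 0.0072), that of Mki67 1.37 ± 0.36 (adjusted p = 0.0152) and that of Brca1 1.54 ± 0.33 (adjusted p = 0.00662). Only 9 of the erythroid genes were tested in node, where the list's mean level was 4.57 to 4.70 in both groups. In blood 0 of 23 erythroid genes were called (median 0.19).

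NRF2 target genes were also called in node. There 15 of 17 drug enzyme genes rose (median 0.443, against 6.15% of all genes called higher), with Nqo1 at 1.98 ± 0.13 against 1.61 ± 0.32 in spleen, a difference between tissues that was not called (adjusted p = 0.551). Hmox1 rose in node by 0.34 ± 0.084, and the difference of its responses, spleen minus node, was -0.68 ± 0.16 (adjusted p = 0.00762). Relative to blood the difference in Hmox1 was -0.82 ± 0.23 (adjusted p = 0.0387). In blood 3 of 12 drug enzyme genes rose, against 0.886% of all genes called higher. Of the interferon-stimulated genes 3 of 19 fell in blood, where 0.453% of all genes were called lower, and 1 of 18 in node.

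**Figure D5:**
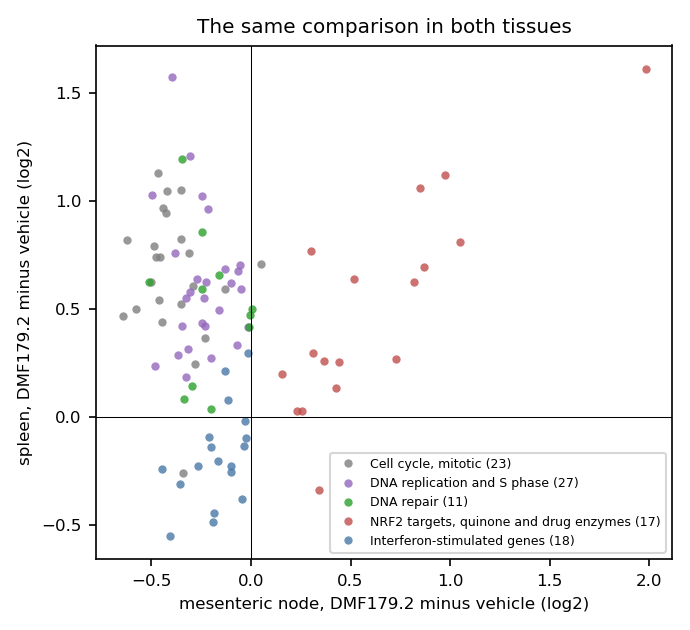
Difference between DMF179.2 and vehicle (log2) in spleen (vertical) against mesenteric lymph node (horizontal), 1 point per gene of 5 lists, with the number of genes in parentheses. Most cell cycle, replication and repair genes lie above 0 in spleen and below 0 in node, while the NRF2 drug enzyme genes lie above 0 in both, apart from Hmox1, which is below 0 in spleen.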

How the data were processed

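RNA of 308 organ and blood samples, 47 of them spleen, was labelled from an oligo-dT primer and hybridised to Affymetrix HT MG-430 PM arrays, per the labels' protocols. The authors deposited log2 expression values per probe set. The submitters' processing notes name RMA, GCRMA, R 2.11.1 and limma 3.4.5, without saying which step each served. No genome build was given in the sources used here. Array data have no read depth, and the number of arrays limits the precision. Of the deposited spleen values, 20.1% sit at the lowest value, 2.10.

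Of 45141 probe sets, 28898 were named by a single gene symbol, and the one with the highest mean over all arrays stood for each of 17097 genes. The 10549 genes above the 50th percentile of spleen values (5.482) in at least 5 spleen arrays were fitted with limma 3.58.1 in R 4.3.3, with 1 mean per group. The text names the 15 called genes with the largest rise and the 15 with the largest fall, members of 44 lists, where those called with the lowest p lead (8 at most per list), and a fixed set of NRF2, red cell and spleen genes. Members and lists were chosen with earlier results of these data known. On simulated data for this comparison (10549 genes), 49.3% of 1.2-fold, 95.5% of 1.5-fold and 97% of 2-fold changes were called. The simulation drew genes independently, with the same spread in every group and 66 or 67 changed genes per fold. It held no effect of place or run, so these shares apply to those settings alone. Spleen and node or blood differences were compared in 1 fit per pair of tissues. Alternatives changed the filter, scaling, probe set, weights and covariates and left out each array in turn. Place in the run, the 18S control and places 5 to 8 alone were added after seeing the data. Motifs were searched in RefSeq promoters.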

Additional observations from a re-analysis of the deposited data

Results flagged for a closer look

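Each list mean and each of a set of single genes was looked at in both groups, which made 128 groups of 8 arrays. Of these, 4 held an array far from the other 7, all for list means, where chance flags about 1 in 20 groups. Vehicle array 7 stood apart in 3 of them. Its mean of NRF2 glutathione and thioredoxin genes was 10.04 (others 9.64 to 9.80), its mean of megakaryocyte and platelet genes 9.22 (others 7.93 to 8.41) and its mean of T cell markers 9.37 (others 9.60 to 9.79). Its erythroid mean was the highest of its group as well. DMF179.2 array 17 had an NK cell mean of 8.69 (others 8.16 to 8.35).

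The response to DMF179.2 differed between spleen and mesenteric node, by an interaction term in limma with adjusted p under 0.05, for 550 genes, and between spleen and blood for 206. Relative to node, genes of replication and its control responded more in spleen, with log2 differences of 1.97 for Cdc6, 1.51 for Mcm10, 1.14 for Mcm2, 0.87 for Cdt1, 1.18 for Ccne1, 0.64 for E2f1, 0.74 for Prim1 and 0.40 for Pcna. Mitotic genes did so by 1.6 for Ccnb2, 1.41 for Cenpe, 1.37 for Mki67, 1.28 for Ccna2, 1.21 for Birc5, 1.17 for Cdk1 and 0.66 for Racgap1. Repair genes did so by 1.54 for Brca1, 1.14 for Exo1, 1.10 for Chek1 and 0.82 for Brca2. Zfpm1 (1.2), Cpox (0.92), Abcb6 (0.86), Uros (0.77) and the hexokinase Hk1 (0.71) were also higher in spleen relative to node. Responses lower in spleen than in node were those of Id1 (-0.76), 2310001H17Rik (-0.73), Hmox1 (-0.68), Pecam1 (-0.52), Txn2 (-0.46), Nfe2l1 (-0.35) and Cd274 (-0.27).

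Relative to blood, responses were higher in spleen for Cenpe (1.30), Mcm2 (1.08), Chek1 (0.94), Pir (0.81), Cish (0.76), Cdt1 (0.63) and Cox6c (0.36), and lower for Smad5 (-0.95) and Hmox1 (-0.82). In the spleen group labelled Nav, whose treatment the labels do not explain, 1411 genes were called against vehicle, 851 of them higher and 560 lower. Pir, which responded more in spleen than in blood, passed the filter only through the DMF179.2 arrays of spleen.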

How the results depend on the processing

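The calls against vehicle changed most with the 3' minus 5' covariate and with places 5 to 8 alone. The 3' minus 5' covariate left 19 genes (9 higher, 10 lower, 6 at 1.5-fold), 15 of them called without it. It turned Smad5 (0.024), Hmox1 (0.029) and C1qa (0.015). The 18S covariate left 1176 (718 higher, 458 lower, 206 at 1.5-fold), place 1124 (642, 482 and 226), and places 5 to 8 alone 2 by limma (0 higher, 2 lower, 0 at 1.5-fold). The erythroid covariate left 1145 (874, 271 and 89) and turned Fn3k (-0.070), 5430401H09Rik (-0.20), Ccna2 (-0.059), Birc5 (-0.019), Blvrb (-0.017) and Gclm (-0.25). The cause was not tested. Array weights gave 4528 genes (3199 higher, 1329 lower), and the stricter filter, which tests fewer genes, 216 at 1.5-fold. Without single arrays 1742 to 3145 genes were called, 1174 (without DMF179.2 array 23) to 2151 higher, 551 to 994 lower and 237 to 457 at 1.5-fold. Against DMF100 the count of 270 became 108 with no filter, 131 with centring, 2191 with array weights, 3 with a variance weight per group and 1 for the groups alone. Against the combination 595 became 350 with no filter, 1961 with array weights, 1131 with a variance weight per group and 1055 for the groups alone. A block on the replicate number raised the tissue differences from 550 to 1496 genes for node and from 206 to 377 for blood. Same-numbered arrays correlated above 0.1 in 11 of 16 pairs with node (median 0.231) and 4 of 15 with blood (median 0.035). The best match had the same number in 3 pairs with node and 3 with blood. The labels do not say whether equal numbers share a mouse, so the numbers were not taken as a pairing.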
